A study of Mus musculus with 12 samples.

Results

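The nuclear-encoded genes of oxidative phosphorylation were followed in the kidneys of mice given cannabidiol (CBD) or its vehicle. They were taken as the protein-coding genes whose GENCODE mouse symbol begins with Nduf and one of the letters a, b, c, s or v and a digit, with Uqcr, with Cox and a digit from 4 to 8, or with Atp5, the Ndufaf assembly factors being left out. Of 85 such genes, 81 had at least 10 counts in 4 or more of the 12 libraries, out of 17443 genes of any kind that reached this minimum. The 81 genes comprised 38 Nduf, 8 Uqcr, 17 Cox and 18 Atp5 genes. The 4 genes under the minimum were Cox7b2, Cox8c, Ndufb11b and a second entry named Atp5po, and the highest count of any of them in a library was 1. All 81 genes also passed the filter of the statistical test, which kept 17163 genes. The symbols, count minimum and filter were not set by a difference between the groups, but a gene could pass through 1 group alone. Cox6a2 and Cox8b reached 10 counts in 7 and 6 libraries, including every control library. Neither would have met the minimum without the control group, where both were highest. The set was chosen with earlier results of these data known.

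Poly(A) RNA was sequenced from kidneys of 12 C57BL/6J male mice, aged 60 days at the start. CBD was injected into the peritoneum once a day for 28 days. The control group (Control) received the vehicle, which contained Tween 80, and the treated groups received 10 mg CBD/kg b.w. (10CBD) or 20 mg CBD/kg b.w. (20CBD), with 4 mice in each group and 1 library from each mouse. Each comparison asked whether a dose of CBD went with a different level of these genes, and both doses were compared with the same 4 control mice. No group carried a gene deletion or a transgene.

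The respiratory chain sits in the inner mitochondrial membrane. Complexes I, II, III and IV pass electrons from NADH and succinate to oxygen, all but complex II pump protons out of the matrix, and ATP synthase (complex V) lets the protons back in to make ATP. Most subunits are encoded in the nucleus, while some core subunits of complexes I, III and IV and of the ATP synthase membrane sector are encoded in mitochondrial DNA, so that both genomes supply each of these complexes. Kidney tubules, the proximal tubule above all, hold dense mitochondria that power the reabsorption of sodium, glucose and amino acids. Several complex IV subunits exist as a ubiquitous form and a form restricted to heart, muscle, lung, testis or brown fat.

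Total counts on genes ranged from 15417867 to 23532088 per library, and the 81 genes together took 1.74% to 2.68% of them. Kidney tubule markers were abundant in every library, with 27482 to 36351 CPM (counts scaled to a common library size with TMM factors) summed over 9 proximal tubule genes. Most of this sum came from the kidney gene Kap. The libraries differed in the share of counts on genes of the mitochondrial genome. It was 3.53% to 5.77% in 4 libraries, namely Control mouse 2, 10CBD mice 1 and 3 and 20CBD mouse 3, and 12.8% to 23.4% in the other 8. Because bulk tissue was sequenced, fewer cells of a type and less RNA per cell cannot be told apart for any gene below.

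Binding motifs of the factors best known to drive these genes were searched in the promoters, taken as the bases from 250 before to 50 after the start of the canonical transcript in the GRCm39 genome. The NRF1 motif of 10 letters, searched on both strands, was present in 10 of the 81 promoters (12.3%), beside 5.8% of 21757 protein-coding promoters. The ETS motif CCGGAAG, bound by GABP among others, was present in 12 (14.8%, beside 10.3%), and the YY1 motif in 1 (1.2%, beside 0.8%). At least 1 of these motifs was found in 22 promoters (27.2%, beside 15.6%). None was found in the promoters of the 6 tissue-restricted isoforms among the 81 genes. Of the ubiquitous partners of such isoforms, Cox6a1 and Cox8a held a match, while Cox4i1, Cox6b1, Cox7a2, Cox7b and Ndufa4 held none. The sequences shown are of Cox6a1 and Cox6a2, the ubiquitous and the heart and muscle form of subunit 6A of complex IV. They were taken since Cox6a2 had the smallest p of the 81 genes at 10 mg and Cox6a1 that of 20CBD against 10CBD. The Cox6a1 window is chr5:115487011-115487290 and the Cox6a2 window chr7:127805530-127805809, both on the minus strand and written 5′ to 3′ from 250 bases before to 30 bases after the start, with motif matches in capitals.
Cox6a1: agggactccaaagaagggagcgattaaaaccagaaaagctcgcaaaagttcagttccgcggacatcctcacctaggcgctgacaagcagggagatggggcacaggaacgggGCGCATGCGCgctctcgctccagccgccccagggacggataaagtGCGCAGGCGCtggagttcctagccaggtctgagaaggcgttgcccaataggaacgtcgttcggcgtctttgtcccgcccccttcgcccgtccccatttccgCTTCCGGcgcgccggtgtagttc
Cox6a2: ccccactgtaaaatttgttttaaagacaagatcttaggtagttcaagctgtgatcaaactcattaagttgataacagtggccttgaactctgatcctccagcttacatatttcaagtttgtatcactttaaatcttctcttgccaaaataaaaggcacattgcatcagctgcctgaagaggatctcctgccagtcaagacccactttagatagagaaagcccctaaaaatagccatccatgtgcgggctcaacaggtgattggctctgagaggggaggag
In the Cox6a1 sequence the first and second runs of capitals match the NRF1 motif, the first on both strands and the second on the opposite strand, and the third is the ETS motif read on the opposite strand. Both sequences were chosen after the values of these genes had been seen, and a match of letters does not show that a factor binds there.

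In control kidneys the levels of the 81 genes, given as CPM per kb of the canonical transcript, ranged from 0.949 to 1429 with a median of 159.8. Atp5f1b, the catalytic beta subunit of ATP synthase, was the highest at 1429 ± 124 CPM per kb (SD, n = 4). Cox6c, a small complex IV subunit, followed at 1046 ± 93.2, and Atp5me, a subunit of the ATP synthase membrane sector, at 857 ± 102 CPM per kb. Among the complex I genes, Ndufa6 had the highest level, 481 ± 37.5 CPM per kb, and the core subunits ranged from 64.7 for Ndufs1 to 224 for Ndufv1. Complex III genes lay between 75.6 for Uqcrc2, a core protein, and 444 for Uqcrh, the hinge protein. The lowest levels belonged to tissue-restricted complex IV isoforms and to Ndufb2, whose canonical transcript is listed with 4389 bases, so that its 3.67 CPM per kb rests on that length. The plot of control levels by complex shows this range.

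**Figure D1:**
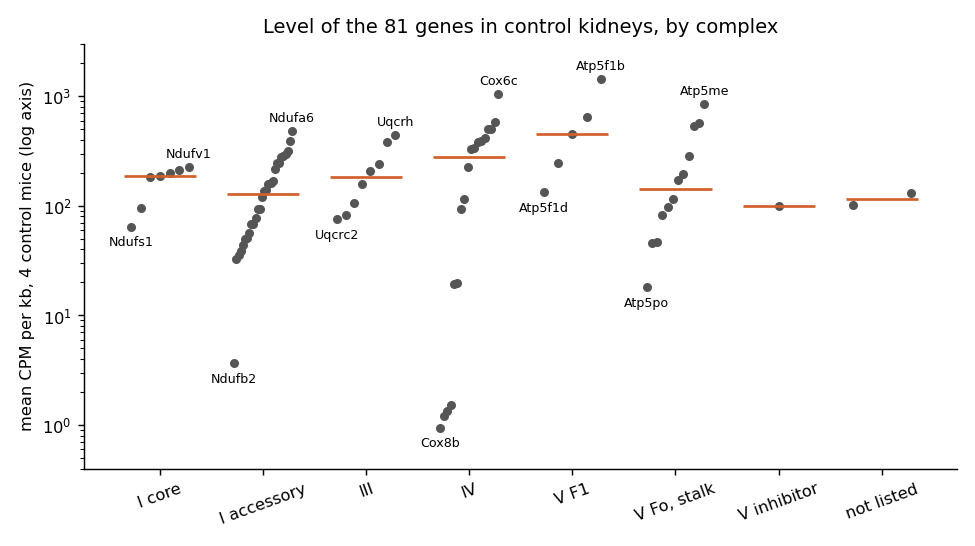
Mean CPM per kb of canonical transcript in the 4 control mice (log axis) for each of the 81 genes, by complex (V is ATP synthase); each point is a gene, orange lines are medians, and the highest and lowest gene of a group are named. Levels ran from 0.949 for Cox8b to 1429 for Atp5f1b, and Cox8b, Cox4i2, Cox6a2 and Ndufa4l2 lay between 0.949 and 1.52.

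Subunit c, which forms the proton-carrying ring of ATP synthase, is encoded by 3 genes that give the same mature protein. Atp5mc3 took 71.9% ± 3.65 of the subunit c CPM in the control mice (SD, n = 4), Atp5mc1 16.6% ± 5.21 and Atp5mc2 11.4% ± 1.61. These shares are not scaled by transcript length. Per kb of canonical transcript, the control levels were 534 CPM for Atp5mc3, 195 for Atp5mc1 and 116 for Atp5mc2. The Atp5mc1 share was 13.3% ± 3.76 in the 10CBD mice and 20.9% ± 3.44 in the 20CBD mice, and the individual shares overlapped between all groups (10.9% to 23.5%, 9.45% to 17.4% and 16.6% to 25.1%). Atp5mc1 has 1 near-identical gene elsewhere in the annotation and Atp5mc2 has 3, with which reads may be shared.

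At 10 mg CBD/kg b.w., no gene of the 81 was called at an adjusted p below 0.1 with edgeR's quasi-likelihood test, in which 0.0291% of all genes tested were called (0.0117% higher, 0.0175% lower). The smallest adjusted p among the 81 was 0.812 in edgeR, and DESeq2 (0.233% of all genes called) and limma-voom (0.0291%) called 0 of them as well. At an unadjusted p below 0.05 there were 5 genes (1 higher, 4 lower), which is 6.17% of the 81 beside 5.67% of all genes tested (3.33% higher, 2.34% lower). The median log2 fold change of the 81 genes was −0.01, beside 0.01 for all genes, with 38 above and 43 below 0 (46.9% above 0, beside 52.3%). The median SE of a gene's log2 fold change was 0.19, which limits the size of change that 4 mice a group could show. With the 4 libraries under 10% mitochondrial counts left out, the median was −0.10, with 15 genes above and 66 below 0 (49.1% of all genes above 0). Of the 81 genes 0 were called there, beside 26 of 17512 genes tested.

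Cox6a2 (ENSMUSG00000030785, chr7:127804607-127805559, minus strand), the heart and muscle isoform of subunit 6A, was one of 2 genes whose levels in the 10CBD mice lay below those of all control mice, where 1.64% of all genes did so. It measured 0.924, 0.620, 1.11 and 1.03 CPM in Control mice 1 to 4 and 0.354, 0.528, 0.497 and 0.470 CPM in 10CBD mice 1 to 4. Its log2 fold change was −0.99 ± 0.34 (SE; edgeR p = 0.0107, adjusted p = 0.812; two-sided exact permutation p = 0.0286, the smallest that 4 against 4 mice can give). It rested on 13 to 22 counts per control library and 8 to 11 per 10CBD library. Cox6a2 met the count minimum only through the control libraries, so its lower values in the 10CBD mice are not independent of that selection.

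Cox7c (ENSMUSG00000017778, chr13:86189246-86195023, minus strand), a small ubiquitous complex IV subunit, was the other. Its levels were 184, 185, 187 and 176 CPM in the control mice and 115, 156, 94.3 and 172 CPM in the 10CBD mice. The control values lay close together, and the 10CBD values fell in a high and a low pair, the low pair being mice 1 and 3, which had low mitochondrial shares. Control mouse 2 and 20CBD mouse 3, which also had low shares, measured 185 and 179 CPM. Low Cox7c thus went with a low share in the 10CBD group alone. The log2 fold change was −0.45 ± 0.16 (SE; edgeR p = 0.0129, adjusted p = 0.812; exact permutation p = 0.0286). Cox7c has near-identical genes elsewhere in the annotation.

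Ndufb2 (ENSMUSG00000002416, chr6:39569490-39595671, plus strand), an accessory subunit of complex I, had the highest log2 fold change at this dose, 1.03 ± 0.38 (SE; edgeR p = 0.0153, adjusted p = 0.812; exact permutation p = 0.257). Control mice measured 17.0, 16.2, 19.0 and 12.3 CPM, and 10CBD mice 51.4, 15.2, 48.1 and 16.5 CPM. The groups overlapped, and the high values belonged to 10CBD mice 1 and 3, the pair with low mitochondrial shares. Control mouse 2, which also had a low share, measured 16.2 CPM. Ndufb2 overlaps another gene on its strand, so that its counts are less certain. With the 4 libraries under 10% mitochondrial counts left out, its log2 fold change was −0.02. Of the core complex I subunits, Ndufv2, which carries an iron-sulfur cluster, stood at −0.29 ± 0.13 (SE; edgeR adjusted p = 0.830), and of the ATP synthase genes, Atp5mc2 at −0.43 ± 0.18 (SE; edgeR adjusted p = 0.812).

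At 20 mg CBD/kg b.w., no gene of the 81 was called either, at a share of 0.303% of all genes tested (0.169% higher, 0.134% lower), and the smallest adjusted p was 0.419 in edgeR. DESeq2 (1.06% of all genes called) and limma-voom (0.28%) again called 0 of the 81. More of the genes lay above 0 than in the whole table: 57 of 81 (70.4%, beside 52.5% of all genes), with a median log2 fold change of 0.14, beside 0.01 for all genes. At an unadjusted p below 0.05 there were 11 genes (13.6%, beside 8.45% of all genes), of which 9 were higher and 2 lower (4.92% and 3.53% of all genes). Without 20CBD mouse 3 the median was −0.02, with 37 genes above and 44 below 0 (50.2% of all genes above 0). With the 4 libraries under 10% mitochondrial counts left out it was 0.03, with 46 above and 35 below 0 (51.0% of all genes above 0).

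By complex, 14 of 18 complex IV genes, 20 of 28 accessory and 3 of 7 core subunits of complex I, 6 of 8 complex III genes, 2 of 5 genes of the catalytic F1 part and 9 of 12 genes of the membrane and stalk part of ATP synthase lay above 0 at 20 mg. The medians were 0.17, 0.11, −0.05, 0.14, −0.06 and 0.17 in that order. The corresponding medians at 10 mg were −0.08, 0.02, −0.05, −0.02, 0.07 and −0.06. Ndufb1 and Cox5b-ps were counted in none of these lists. They stood at 0.13 ± 0.14 and 0.65 ± 0.29 at 20 mg (SE; edgeR adjusted p = 0.857 and 0.570). Atp5if1, which blocks ATP hydrolysis by the synthase, stood at 0.39 ± 0.22 at 10 mg and 0.43 ± 0.22 at 20 mg (SE; edgeR adjusted p = 0.879 and 0.633). Its levels in the 20CBD mice, 88.9, 91.9, 90.7 and 90.2 CPM, lay within the control range of 39.5 to 91.1 CPM except that of mouse 2.

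**Figure D2:**
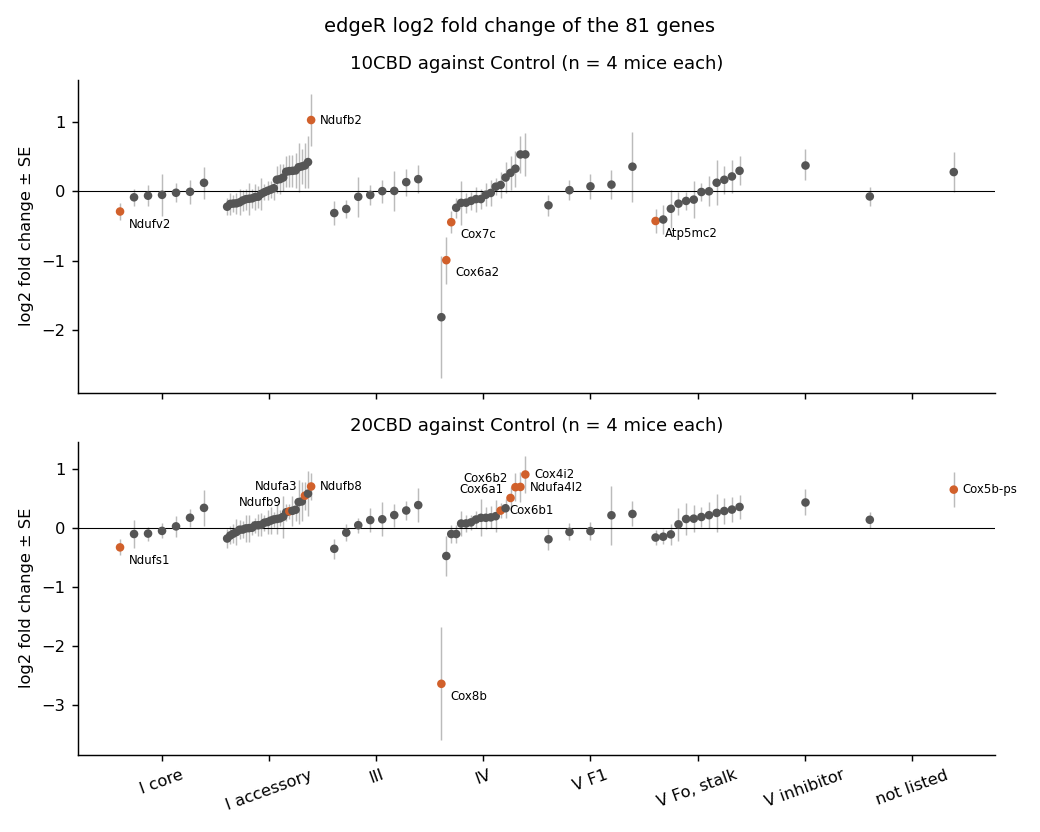
edgeR log2 fold change (± SE) of each of the 81 genes against the 4 control mice, by complex, for 10 mg (top) and 20 mg CBD/kg b.w. (bottom); orange points have an unadjusted p below 0.05, and no point was called after adjustment. At 20 mg 57 of 81 points lie above 0, a count that was 37 without mouse 3 of that group.

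Ndufb8 (ENSMUSG00000025204, chr19:44537011-44543939, minus strand), an accessory subunit of complex I, had the smallest p at 20 mg. It has a near-identical gene in the annotation and overlaps another gene on its strand, so that its counts are less certain. Control mice measured 23.6, 33.0, 30.3 and 19.0 CPM, and 20CBD mice 28.2, 38.9, 63.6 and 41.2 CPM. Of the treated mice, 3 of 4 lay above every control mouse, and mouse 3 was the highest. The log2 fold change was 0.70 ± 0.24 (SE; edgeR p = 0.00986, adjusted p = 0.419; exact permutation p = 0.0857).

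Cox6a1 (ENSMUSG00000041697, chr5:115483701-115487050, minus strand), the ubiquitous counterpart of Cox6a2, measured 291, 415, 344 and 293 CPM in the control mice, 300, 291, 334 and 319 CPM in the 10CBD mice and 331, 459, 652 and 463 CPM in the 20CBD mice. Its log2 fold change at 20 mg was 0.50 ± 0.18 (SE; edgeR p = 0.0137, adjusted p = 0.460; exact permutation p = 0.0857). Against the 10CBD mice it was 0.62 ± 0.18 (SE; edgeR p = 0.0039, adjusted p = 0.758; exact permutation p = 0.0571), the smallest p of the 81 in that comparison.

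The genes whose 20CBD values all lay above the control values were Cox4i2, Ndufa4l2 and Cox6b1, 3 of 81, where 2.67% of all genes did so. Cox6b1, the ubiquitous form of subunit 6B, measured 264, 224, 270 and 245 CPM in the control mice and 283, 319, 320 and 305 CPM in the 20CBD mice. Its log2 fold change was 0.29 ± 0.12 (SE; edgeR p = 0.0313, adjusted p = 0.533; exact permutation p = 0.0286). Ndufs1 (ENSMUSG00000025968, chr1:63182058-63216236, minus strand), the largest core subunit of complex I, was the only gene of the 81 whose 20CBD values all lay below the control values, where 2.63% of all genes did so. It measured 246, 262, 211 and 217 CPM in the control mice and 196, 161, 183 and 203 CPM in the 20CBD mice, a log2 fold change of −0.33 ± 0.14 (SE; edgeR p = 0.0276, adjusted p = 0.522; exact permutation p = 0.0286).

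Uqcrc2, a core protein of complex III, had the lowest log2 fold change of that complex at both doses, −0.31 ± 0.17 and −0.36 ± 0.17 (SE; edgeR adjusted p = 0.872 and 0.597). It measured 192, 149.7, 172 and 189 CPM in the control mice, 109, 178, 123 and 156 CPM in the 10CBD mice and 171, 135, 109 and 134 CPM in the 20CBD mice. Both treated groups overlapped the control mice.

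Ndufs7, a core subunit of complex I that carries an iron-sulfur cluster, and Uqcr11, a small subunit of complex III, had the highest log2 fold changes of their lists at 20 mg, 0.34 ± 0.31 and 0.38 ± 0.29 (SE; edgeR adjusted p = 0.835 and 0.787). Ndufs7 measured 135, 217, 140.2 and 120.2 CPM in the control mice and 126, 126, 359 and 163 CPM in the 20CBD mice. Uqcr11 measured 271, 349, 263 and 275 CPM in the control mice and 213, 278, 706 and 313 CPM in the 20CBD mice. The highest value of each belonged to 20CBD mouse 3, and without that mouse the log2 fold changes were −0.15 and −0.11.

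Between the doses, no gene of the 81 was called (0% of all genes were, with 0.0699% in DESeq2), and the smallest adjusted p was 0.758 in edgeR. DESeq2 called 12 genes in all and 0 of the 81. The median log2 fold change of 20CBD against 10CBD was 0.14, with 54 of 81 above 0, where 49.4% of all genes were. It was −0.05 without 20CBD mouse 3, with 38 above 0 (48.2% of all genes). With the 4 libraries under 10% mitochondrial counts left out it was 0.15, with 69 above 0 (51.0% of all genes). At an unadjusted p below 0.05 there were 11 genes (10 higher, 1 lower), 13.6% beside 6.31% of all genes (3.47% higher, 2.84% lower). Atp5mc1 measured 63.7, 102, 75.4 and 120 CPM in the 10CBD mice and 105, 155, 177 and 146 CPM in the 20CBD mice (log2 fold change 0.69 ± 0.22, SE; edgeR p = 0.00616, adjusted p = 0.758; exact permutation p = 0.0571). Ndufa7, an accessory subunit of complex I, stood at 0.44 ± 0.15 (SE; edgeR p = 0.00982, adjusted p = 0.758; exact permutation p = 0.0857). Ndufa6 and Ndufb4 were the 2 genes higher in all 20CBD than in all 10CBD mice, where 1.7% of all genes were, and 0 were lower in all (1.4% of all genes). Ndufa6 measured 205, 277, 219 and 273 CPM in the 10CBD mice and 297, 318, 321 and 316 CPM in the 20CBD mice.

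The tissue-restricted isoforms are expressed at a small part of the level of their ubiquitous partners. Per 1000 units of the partner's CPM per kb, the control mice had 2.54 ± 0.80 of Cox4i2, the lung and oxygen-responsive form of subunit 4, 2.40 ± 0.77 of Cox6a2, 2.38 ± 2.00 of Cox8b, the heart, muscle and brown fat form of subunit 8, and 3.65 ± 0.67 of Ndufa4l2, a hypoxia-induced relative of the complex IV subunit Ndufa4 (SD, n = 4). Cox6b2, known from testis, reached 50.2 ± 12.5 and Cox7a1, the heart and muscle form of subunit 7A, 87.8 ± 20.5. Cox7b2 and Cox8c, both known from testis, were at or near 0 in every library.

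Cox4i2 (ENSMUSG00000009876, chr2:152595625-152606959, plus strand) measured 0.882, 0.906, 0.856 and 1.03 CPM in the control mice, 2.08, 1.06, 1.36 and 0.763 CPM in the 10CBD mice and 1.35, 1.68, 2.34 and 1.52 CPM in the 20CBD mice. The control values were close together, and every 20CBD value lay above them. The log2 fold change at 20 mg was 0.90 ± 0.31 (SE; edgeR p = 0.0116, adjusted p = 0.438; exact permutation p = 0.0286), on 17 to 21 counts per control library and 23 to 39 per 20CBD library. Ndufa4l2 gave 1.55, 1.48, 1.81 and 1.03 CPM in the control mice and 1.82, 2.75, 2.88 and 2.09 CPM in the 20CBD mice, a log2 fold change of 0.69 ± 0.26 (SE; edgeR p = 0.0179, adjusted p = 0.476; exact permutation p = 0.0286). The lowest 20CBD value lay just above the highest control value.

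Cox4i2 and Ndufa4l2 are known to be expressed in smooth muscle cells and pericytes. All 4 markers of these cells had a log2 fold change above 0 at 20 mg, and Myh11, smooth muscle myosin, was called (74.7 ± 7.25 CPM in Control and 122 ± 20.1 in 20CBD, SD, n = 4; log2 fold change 0.71, edgeR adjusted p = 0.0760). The summed CPM of the 4 markers was 203 to 234 in the control mice and 293 to 341 in the 20CBD mice. Across the 12 libraries, Pearson's r of log2 CPM with Myh11 was 0.79 for Cox4i2 and 0.62 for Ndufa4l2. With the pericyte gene Rgs5 it was only 0.04 and 0.29, so that the likeness over libraries held for the smooth muscle gene of this pair. The part of these cells in the values of Cox4i2 and Ndufa4l2 was not tested.

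Cox8b (ENSMUSG00000025488, chr7:140477069-140480359, minus strand) had the lowest log2 fold change at both doses, −1.82 ± 0.88 at 10 mg and −2.64 ± 0.96 at 20 mg (SE; edgeR p = 0.0578 and 0.0148, adjusted p = 0.870 and 0.462; exact permutation p = 0.171 and 0.0857). It rested on 11, 78, 12 and 62 counts in the control libraries, 9, 26, 3 and 3 in the 10CBD libraries and 0, 2, 2 and 18 in the 20CBD libraries. Cox8b met the count minimum only through the control libraries, so its low fold changes are not independent of that selection. The control mice themselves split into a high and a low pair, and both treated groups overlapped the low pair. With 1 library left out, the log2 fold change ranged from −3.04 (without 10CBD mouse 2) to −1.34 (without Control mouse 2) at 10 mg and from −4.57 (without 20CBD mouse 4) to −2.17 (without Control mouse 2) at 20 mg. Ucp1, the uncoupling protein of brown fat, had 0, 70, 26 and 115 counts in the control libraries and 0, 1, 2 and 20 in the 20CBD libraries. Without the control libraries, neither Ucp1 nor Cidea would have met the count minimum. Across the 12 libraries, Pearson's r of log2 CPM with Cox8b was 0.94 for Cidea and 0.89 for Ucp1, both brown fat genes, and 0.82 for the fat hormone Adipoq. All 4 adipocyte markers and both tested brown adipocyte markers were below 0 at each dose, and their summed CPM was 96.0 to 257 for adipocyte and 0.378 to 12.1 for brown adipocyte markers in the control mice, and 67.9 to 114 and 0.0586 to 1.92 in the 20CBD mice. The part of adipose tissue in the Cox8b values was not tested. Of 4 skeletal muscle genes, Acta1, Ckm and Tnnt3 were at no more than 0.381 CPM in any library, and Mylpf measured 0.544 to 1.38 CPM.

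**Figure D3:**
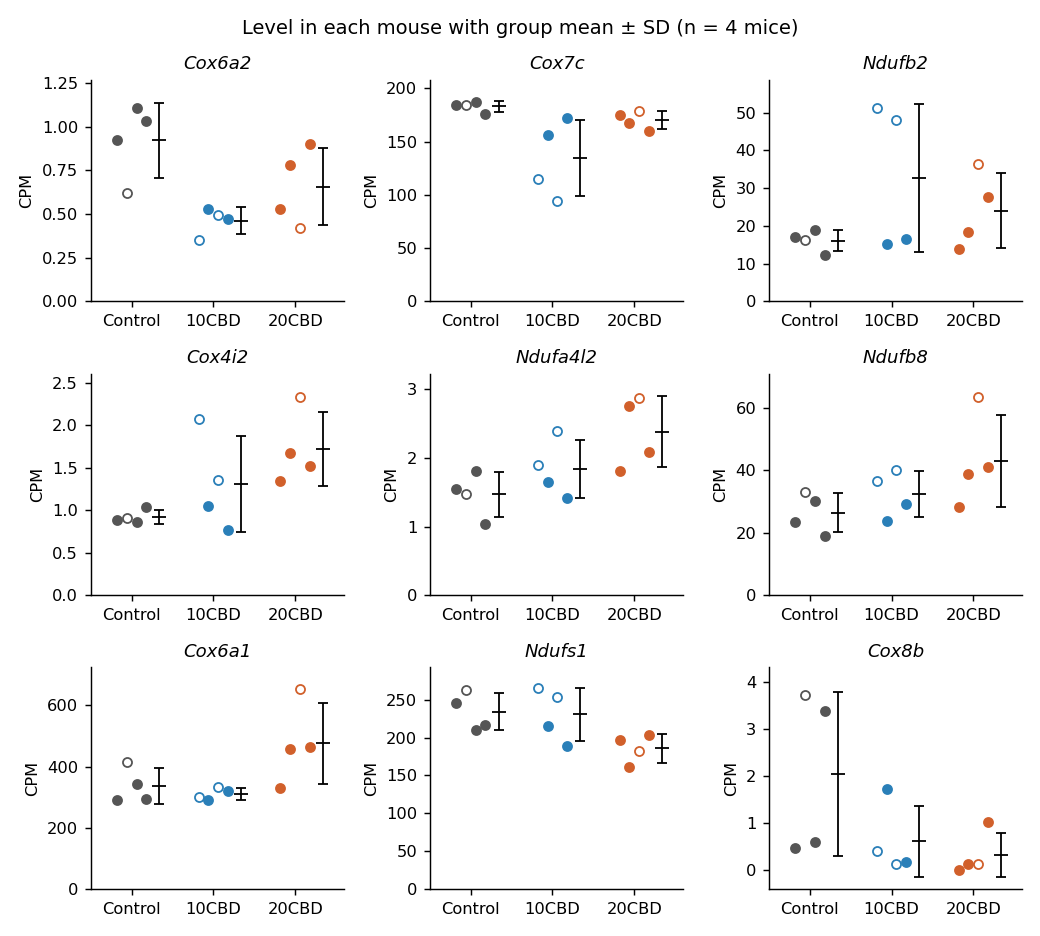
CPM of 9 genes in each mouse, by group; points are mice, open points are the 4 libraries with under 10% of counts on mitochondrial genes, and black bars give the mean and SD (n = 4). Cox4i2 and Ndufa4l2 of all 20CBD mice lie above the control mice, and Cox6a2 and Cox7c of all 10CBD mice lie below them. The high Ndufb2 values of the 10CBD mice are open points, while the open point of the control mice lies at 16.2 CPM.

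Mice of the same group differed in the level of these genes, and within each group the highest medians belonged to the libraries with the lowest shares of mitochondrial counts. The median log2 difference of the 81 genes from the control mean was 0.06, 0.14, 0.00 and −0.15 in Control mice 1 to 4, 0.19, −0.18, 0.07 and −0.09 in the 10CBD mice and −0.08, −0.08, 0.47 and 0.12 in the 20CBD mice. 20CBD mouse 3 held the highest of the 12 values for 41 of the 81 genes, and 10CBD mouse 1 for 18. The 4 libraries lay above all other 8 for 19 of the 81 genes and below all 8 for 4, where 6.29% and 6.65% of all genes did so.

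**Figure D4:**
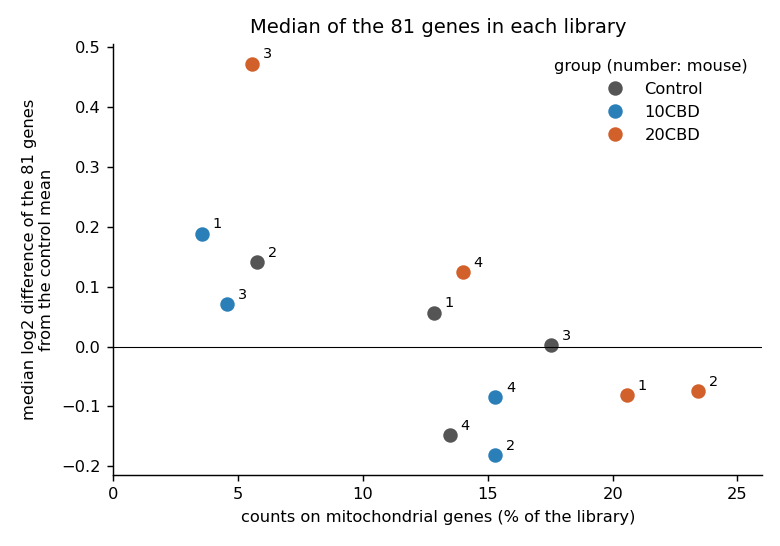
Median over the 81 genes of the log2 difference from the control mean (vertical axis) against the percent of counts on mitochondrial genes (horizontal axis) in each of the 12 libraries; numbers are mice. The 4 libraries at 3.53% to 5.77% all lie above 0, and 20CBD mouse 3 lies highest at 0.47.

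Several genes were separated clearly by this share. They were chosen after their values had been seen. Atp5f1e, the epsilon subunit of ATP synthase, measured 324 to 505 CPM in the 4 libraries with low shares and 104 to 192 CPM in the other 8, with mice of all 3 groups on each side. Ndufv1, the core subunit that binds NADH, measured 472 to 510 CPM against 264 to 378, and Ndufb7, an accessory subunit of complex I, 324 to 475 against 154 to 269.5 CPM. The opposite order was seen for Atp5pf, coupling factor 6 of the ATP synthase stalk, at 164 to 203 CPM in the 4 libraries and 287 to 389 CPM in the other 8, and for Atp5f1c, the gamma subunit, at 317 to 357 against 416 to 489 CPM. Within one complex, genes thus lay on both sides.

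Among the 8 libraries with larger shares alone, the genes differed in their relation to the share. The median Pearson's r of log2 CPM with the share was −0.07, beside 0.01 for all genes, and it was negative for 49 of the 81 (60.5%, beside 49.3%). It was under −0.7 for 8 genes, with −0.97 for Atp5f1a, the alpha subunit of ATP synthase, and −0.90 for Ndufv1 as the lowest, and over 0.7 for 2, Ndufb4 (0.80) and Ndufa4l2 (0.71). The share of all genes beyond these bounds among the 8 libraries is not given here, so these counts describe the 81 genes alone. Base composition moved with the same contrast. Across all genes tested with a canonical transcript, the log2 difference between the 4 libraries and the other 8 correlated with transcript GC content with Pearson's r of 0.34, and across the 81 genes with r of 0.27, genes not being independent replicates. The same difference had a Spearman's rho with transcript length of −0.25 across all genes and 0.02 across the 81 genes. The median transcript length was 971 bases in the 81 genes and 2970 in all genes tested. The part of base composition or length in the difference was not tested. The 4 libraries came from all 3 groups.

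Other measures also moved with the share. Of the 9 proximal tubule markers, the lactate transporter Slc5a12 was lower in all 4 libraries (65.5 to 130.4 CPM, against 153 to 215 in the other 8) and Kap, an androgen-regulated kidney gene, higher in all 4 (19503 to 24560 against 16215 to 19358 CPM). The other 7 overlapped, some ranges lying higher in the 4 libraries and some lower. Slc7a13 measured 1002 to 2302 against 675 to 1156 CPM, and Cubn 136 to 258 against 245 to 526 CPM. The sum of the 9 was 32244 to 36351 CPM in the 4 libraries and 27482 to 32308 CPM in the other 8. Kap gave most of this sum in each library. Nuclear ribosomal RNA genes took 6.70% to 8.80% of counts in the 4 libraries and 4.22% to 7.29% in the other 8. The part of these measures in the differences between the libraries was not tested.

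With the mitochondrial share as a covariate, edgeR called 14 of the 81 genes at 20 mg, 13 higher and 1 lower, in a fit that called 8.08% of all genes. They included Ndufb8 (log2 fold change 0.81 ± 0.16, SE, edgeR adjusted p = 0.0152), Cox6a1 (0.58 ± 0.14, adjusted p = 0.0320) and, lower, Uqcrc2, a core protein of complex III (−0.48 ± 0.11, adjusted p = 0.0318). With 20CBD mouse 3 left out of the same fit, 0 of the 81 were called (0.263% of all genes), and the smallest edgeR adjusted p was 0.212. The median log2 fold change was then 0.09 with 54 of 81 above 0 (49.4% of all genes). The covariate gave 0 calls among the 81 at 10 mg (0.0874% of all genes, and 0.0686% with mouse 3 of 20CBD left out) and 3 (Cox6a1, Ndufs7 and Uqcr11) for 20CBD against 10CBD (0.361%). In the latter comparison 0 were called with 20CBD mouse 3 left out, with a median of 0.20 and 71 of 81 above 0 (48.1% of all genes).

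Without a filter on low counts, 2 of the 81 genes were called at 10 mg (0.827% of all genes), namely Cox8b and Ndufb2, 6 at 20 mg (1.04%) and 3 for 20CBD against 10CBD (0.64%). In the 4 libraries under 10% mitochondrial counts alone, which are 1 Control, 2 10CBD and 1 20CBD mice, 9, 15 and 24 were called in the 3 comparisons (4.19%, 5.33% and 8.59%). The spread there came from the single pair of 10CBD mice, and 20CBD against Control set 1 mouse against 1, so that these counts compare the libraries and not the doses. With the replicate number as a block 0 were called (0.0233% of all genes at 10 mg, 0.157% at 20 mg).

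**Figure D5:**
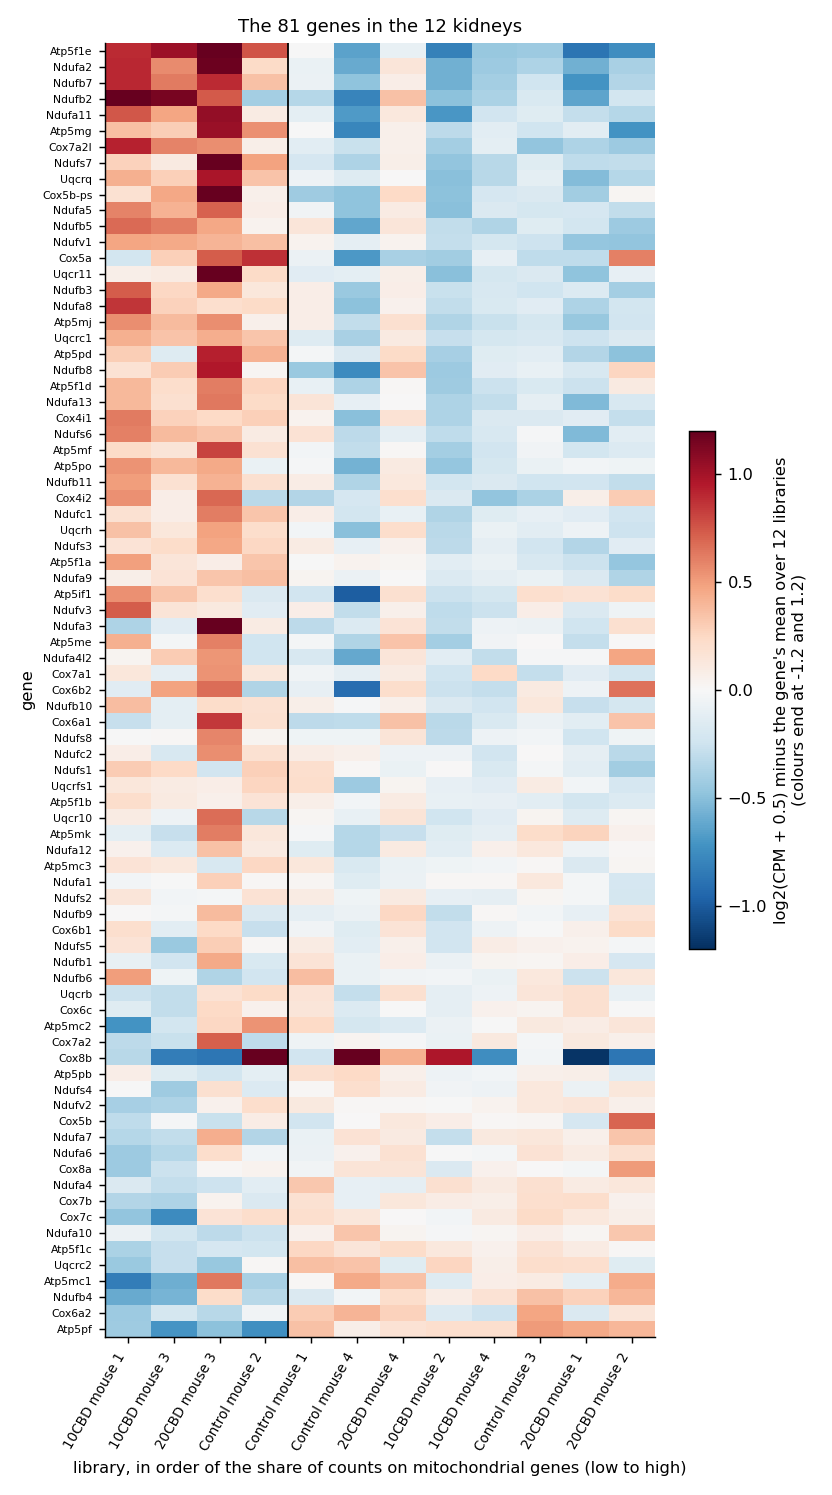
log2(CPM + 0.5) of the 81 genes minus each gene's mean over the 12 libraries (colour), with libraries ordered by their share of counts on mitochondrial genes and genes by the difference between the 4 libraries left of the black line and the other 8. The upper genes are high in the 4 libraries at the left, whichever group they belong to, and the lowest rows are low in them.

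Other genes of the pathway gave no called change. Of 7 genes of complex II and of the electron carriers, 3 lay above 0 at 10 mg and 2 at 20 mg, and 0 were called. Sdhb, the iron-sulfur subunit of succinate dehydrogenase, measured 358 ± 31.4, 368 ± 59.9 and 421 ± 108 CPM in Control, 10CBD and 20CBD (SD, n = 4). All 13 mitochondrially encoded subunits lay below 0 at 10 mg (median log2 fold change −0.41) and 12 of 13 above 0 at 20 mg (median 0.60), with 0 called at either dose. Their summed CPM ranged from 40785 to 172201 in the control mice alone, so that the spread within a group exceeded these differences. Of 14 complex I assembly factors, 7 lay above 0 at each dose, and of 26 tested assembly factors of complexes III and IV 14 and 12 did, with 0 called. The 3 ATP synthase assembly factors were below 0 at 10 mg, Tmem70 being the lowest p of them (37.4 ± 3.79 CPM in Control and 28.7 ± 4.90 in 10CBD, SD, n = 4; edgeR adjusted p = 0.812). Of 14 regulators of mitochondrial genes, among them Nrf1, Gabpa, Tfam and Ppargc1a, 10 lay above 0 at 10 mg and 6 at 20 mg and 0 were called. Of 9 proximal tubule markers, 3 lay above and 6 below 0 at 20 mg, and 1 was called, the glucose transporter Slc5a2 (217 ± 16.2 CPM in Control and 143 ± 13.6 in 20CBD, SD, n = 4; edgeR adjusted p = 0.0820). Lrp2, the endocytic receptor megalin, stood at −0.76 ± 0.18 (SE; edgeR adjusted p = 0.173), and the amino acid transporter Slc7a13 at 0.33 ± 0.33 (SE; edgeR adjusted p = 0.855). With the share of proximal tubule marker counts as a covariate, 1 of the 81 genes was called at 20 mg, where 1.41% of all genes were, namely Ndufb8 (edgeR adjusted p = 0.0393). Kap gave most of these marker counts.

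The genes outside the 81 whose log2 CPM over the 12 libraries was most like the mean of the 81 were Sdhb (Pearson's r = 0.98), Tfpt, Mrpl41, Rps15 and Pet100 (r from 0.97 to 0.98), and 182 such genes had an r above 0.9. Between pairs of the 81 genes the median r was 0.31 over the 12 libraries. It was 0.58 within the F1 part of ATP synthase, 0.44 among the complex I accessory subunits and 0.11 in the membrane and stalk part of ATP synthase. These correlations describe the 12 libraries, which share the spread in mitochondrial counts described above.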

How the data were processed

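The values are counts of reads per gene as deposited by the authors, in 1 file per library, without normalization. The authors trimmed poly(A) RNA reads with Flexbar, mapped them with STAR 2.7.5c to GRCm39 and counted them with HTSeq 1.99.2 (versions per the submitters' processing notes). The annotation release, strand setting and use of molecular identifiers are not given in the sources used here. Without a stated strand setting, a gene cannot be told apart from an overlapping antisense gene, and the gene bodies of 56 of the 81 genes overlap one. Totals were 15417867 to 23532088 counts, and counting error is a lower limit of the error of each value. No 2 libraries held the same counts.

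Gene names came from GENCODE vM39, which matched 99% of the genes. Groups came from the sample titles, with 1 library per mouse. edgeR 4.0.16 in R 4.3.3 was fitted to all 12 libraries (filterByExpr, TMM factors, quasi-likelihood test, no covariate), with Benjamini-Hochberg adjustment over all 17163 genes and calls at an adjusted p below 0.1. Exact permutation tests were two-sided, on mean log2 CPM with a prior count of 2. The scripts were tested on simulated data. Alternatives were DESeq2 1.42.0, limma-voom (limma 3.58.1), other normalizations, filters, covariates, a replicate block and leaving out libraries.

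The 81 genes, the gene lists and the tests were chosen with earlier results of these data known. Genes were named by a rule: per complex, the highest and lowest fold change at each dose and the highest and lowest control level (per kb of canonical transcript, where the plan had exon length), the 3 smallest p of each comparison, and the isoform pairs and subunit c genes. Ndufb4, Ndufb7, Atp5pf and the genes set beside Cox4i2, Ndufa4l2 and Cox8b were chosen after values were seen. The same holds for the markers set beside the mitochondrial share and for the comparisons with transcript GC and length. Cox5b-ps, annotated as protein-coding, was kept. Reads were not realigned, and 11 of the 81 genes have another gene at 95% identity or more over at least 50% of their length. A sequence given for a promoter was read from the GRCm39 genome.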

Additional observations from a re-analysis of the deposited data

Results flagged for a closer look

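A mouse far from the other 3 of its group was found in 4 of the 144 groups of values examined (2.78%, where chance gives about 1 in 20). Atp5po was low in Control mouse 4 (35.7 CPM), Ndufa7 high in 10CBD mouse 4 (72.8 CPM), Ndufb6 high in 10CBD mouse 1 (110.4 CPM) and Uqcr11 high in Control mouse 2 (349 CPM).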

How the results depend on the processing

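Of 38 fold changes of named genes, 26 kept their sign under every alternative. The number of the 81 genes called stayed 0 in each comparison with RLE or upper-quartile scaling, DESeq2, limma-voom, a minimum of 10 counts in 4 libraries, only the 2 groups compared, mitochondrial and ribosomal RNA genes removed, libraries under 10% mitochondrial counts left out, and each library left out in turn. Without a filter on low counts 2 (10 mg), 6 (20 mg) and 3 (20CBD against 10CBD) were called among 40012 genes, and the cause was not tested. The mitochondrial share as a covariate gave 14 calls at 20 mg and 3 between the doses, and the cause was not tested. The next 3 alternatives were chosen after seeing the data. The proximal tubule share as a covariate gave 1 call at 20 mg. The 4 libraries under 10% mitochondrial counts alone gave 9, 15 and 24 calls and a median of 0.36 for 20CBD against 10CBD, with the lone mice assumed to vary like the single pair, which says nothing of the doses. The mitochondrial covariate without 20CBD mouse 3 gave 0 calls. With each library left out, the median ranged from −0.066 to 0.031 (10 mg), −0.024 to 0.199 (20 mg) and −0.0547 to 0.202 (20CBD against 10CBD), the lowest value of the last 2 being without 20CBD mouse 3.

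Signs turned for 12 of the 38. At 10 mg, with the libraries under 10% mitochondrial counts left out, the log2 fold change was −0.293 for Atp5f1e, −0.139 for Atp5po, −0.0291 for Cox4i2, −0.0450 for Cox6b2, −0.0240 for Ndufb2, −0.151 for Ndufv1 and −0.00901 for Uqcrc1. With the mitochondrial share as a covariate it was −0.116 for Atp5f1e and −0.0566 for Ndufv1, and −0.0891 and −0.0673 when 20CBD mouse 3 was also left out. With the proximal tubule share it was −0.171 for Atp5f1e, −0.0257 for Cox7a1 and −0.0764 for Ndufv1, and Cox7a1 was at −0.139 in the 4 low libraries alone. At 20 mg Uqcr11 was at −0.00708 with those libraries left out, and Atp5f1a at 0.0181 with the covariate and without 20CBD mouse 3. With 1 library left out, Ndufv1 ranged from −0.00458 to 0.252 at 10 mg, and at 20 mg Cox7a1 from −0.0154 to 0.272, Ndufs7 from −0.148 to 0.551 and Uqcr11 from −0.113 to 0.577.

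The replicate numbers did not pair the mice. Libraries with the same number correlated at −0.33 to 0.317 in their deviations from the group means, 4 of 12 pairs were over 0.1, and 0 libraries correlated best with their own number in both other groups. With the replicate number as a block 0 of the 81 genes were called in each comparison, with medians of −0.0264, 0.113 and 0.109, and calls over all genes at 20 mg went from 52 to 27.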
